A study of Mus musculus with 4 samples.

Results

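The R-spondins Rspo1, Rspo2, Rspo3 and Rspo4 and the receptors Lgr4, Lgr5 and Lgr6 were followed in OP9 cells, a mouse stromal line used to support blood progenitors in culture. These 7 genes were chosen by name, and every array probe annotated to them was taken, giving 15 probes of 41174. Gene expression had been measured in 4 samples, with 1 single-colour Agilent array each. For the 2 Control samples the cells had received the retroviral vector LZRS-IRES-GFP without an insert, and for the 2 Wnt3A samples that vector holding Wnt3A. GFP was thus encoded in both groups, and all cells were grown in medium with 20% fetal calf serum. The comparison asked how Wnt3A, a secreted activator of beta-catenin signalling, changed the genes of the supporting cells. The labels call the replicates separate without naming separate cultures, so each p-value rests on the spread between samples that may be technical repeats.

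R-spondins are secreted proteins that strengthen Wnt signalling without starting it alone. They bind the Lgr receptors and the membrane E3 ubiquitin ligases Znrf3 and Rnf43, which otherwise remove Frizzled and Lrp6 from the cell surface. Rnf43, Znrf3 and Lgr5 are themselves known as Wnt target genes in several tissues, and R-spondins of stromal cells are known to sustain neighbouring stem cells.

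Rspo3 was the only one of the 7 genes whose change passed the test. In the deposited table its probe A_52_P337760 was at least 36.5-fold higher in the Wnt3A arrays, or 18.3-fold with the estimated floor set 2 times as high. That probe was kept for the test through its Wnt3A arrays alone, and the gene's other probe was not tested in the table. Of 11 alternative fits of the table, 5 kept the call. Rspo1, Rspo2, Rspo4, Lgr4, Lgr5 and Lgr6 did not pass. In the scanner files listed under these samples, Rspo2 and Lgr5 had no tested probe and Rspo3 was tested only by its other probe. None of the tested genes passed there. The standard error there was 1.42 for each probe and 0 of 28775 probes were called higher, so not passing there says little about a gene. For Rspo4, Lgr4 and Lgr6, probes to different parts of the gene gave unlike values, so the sequences of the probes on which these results turn are shown first. Each is a designed 60-base array oligo, printed 5′ to 3′ in lower case because no stretch within it was singled out.

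The Rspo3 probe A_52_P337760, at chr10:29194119-29195838 on mm8 (minus strand), carried the change of Rspo3. It starts at base 751 of the transcript NM_028351.
Rspo3 A_52_P337760: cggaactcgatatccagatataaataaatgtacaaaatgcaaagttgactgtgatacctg
The Rspo4 probe A_52_P187167, at chr2:151561348-151564492 (plus strand), starts at base 694 of NM_001040689, and it was higher in the Wnt3A arrays where the gene's other probe was lower.
Rspo4 A_52_P187167: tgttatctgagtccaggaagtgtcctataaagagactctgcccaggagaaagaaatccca
The Lgr4 probe A_52_P278566, at chr2:109790592-109791978 (plus strand), starts at base 779 of NM_172671, and its Control and Wnt3A values lay farthest apart among the 4 probes of Lgr4.
Lgr4 A_52_P278566: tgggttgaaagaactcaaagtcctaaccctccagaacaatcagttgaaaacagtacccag
The brightest Lgr6 probe A_52_P616580, at chr1:136803616-136803675 (minus strand), starts at base 2711 of NM_001033409.
Lgr6 A_52_P616580: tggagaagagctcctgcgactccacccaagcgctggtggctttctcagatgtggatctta
The first 3 of these lie across 1720, 3145 and 1387 bases of the genome for 60 bases of probe, so each crosses from exon to exon, with 1660, 3085 and 1327 genomic bases left out of the oligo. The Lgr6 probe is unbroken on the genome. Positions are those of the array's own annotation, and exon numbers are not given.

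Intensities below come from the deposited table of all samples, in which the median spot of every array is 1, unless the scanner files are named. A spot counted as detected above an estimated floor, which was 0.0702 and 0.0631 for Control and 0.0533 and 0.0729 for Wnt3A and lay under 80.7% to 83.7% of spots. Log2 values are relative to the 75th percentile of each array. The table and the scanner files listed under each sample did not match array by array. The rank correlation of a column with its own sample's file was 0.637 and 0.826 for Control and 0.684 and 0.746 for Wnt3A. Scaling alone keeps the rank order, so no column is a rescaled copy of its file, and how the columns were made is not known. All 4 table columns had their highest rank correlation with the scanner file of Control replicate 2 (0.826 to 0.845) and their lowest with that of Control replicate 1 (0.610 to 0.637), a faint file with 41.8% of spots well above background against 71.6% to 85.7% in the others. Nor did the scanner files group by condition. Their rank correlation was 0.713 between the Control files and 0.765 between the Wnt3A files, and 0.695 to 0.840 between files of different groups, where the table had 0.950 and 0.954 within groups and 0.924 to 0.929 between them. Scanner values are given beside the table with that limit and not as a check of it. A difference is given only for probes well above background on both arrays of a group. All 10 markers of stromal cells were above the floor on every table array, and their summed intensity was 605 and 891 in Control and 1468 and 1576 in Wnt3A. These markers did not move together, since 3 were higher and 7 lower with a median difference of -0.19. By their brightest probe 0 passed in limma, while another probe of Col3a1 was called higher (log2 difference 5.35, adjusted p 0.0454). The collagens Col1a1 (1.81), Col1a2 (1.35) and Col3a1 (4.27) carried the sum, while Pdgfra (-2.25), Vcam1 (-1.61), Cxcl12 (-1.44) and Vim (-0.90) had lower values in Wnt3A (log2 differences). The 10 macrophage markers were also all above the floor, with a summed intensity of 11.6 to 16.9 that overlapped between the groups. Their median percentile among spots was 45.8 to 50.4 on the table arrays and 73.8 to 89.7 in the scanner files. Above the table floor were also 5 of 5 epithelial markers (8.17 to 10.7, overlapping), and 3 to 4 of 6 endothelial markers (4.80 and 5.09 in Control and at most 4.36 in Wnt3A). The part of these lists in the results below was not tested. RNA of whole cultures was measured, so fewer cells of a type and less RNA per cell cannot be told apart. The only Wnt3a probe read 0.0151 and 0.0134 in Control and 0.0112 and 0.123 in Wnt3A, above the floor in Wnt3A replicate 2 alone. This probe starts at base 2599 of the Wnt3a transcript. No label tells how much of the transcript the insert holds, so the probe does not check the groups.

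**Figure D1:**
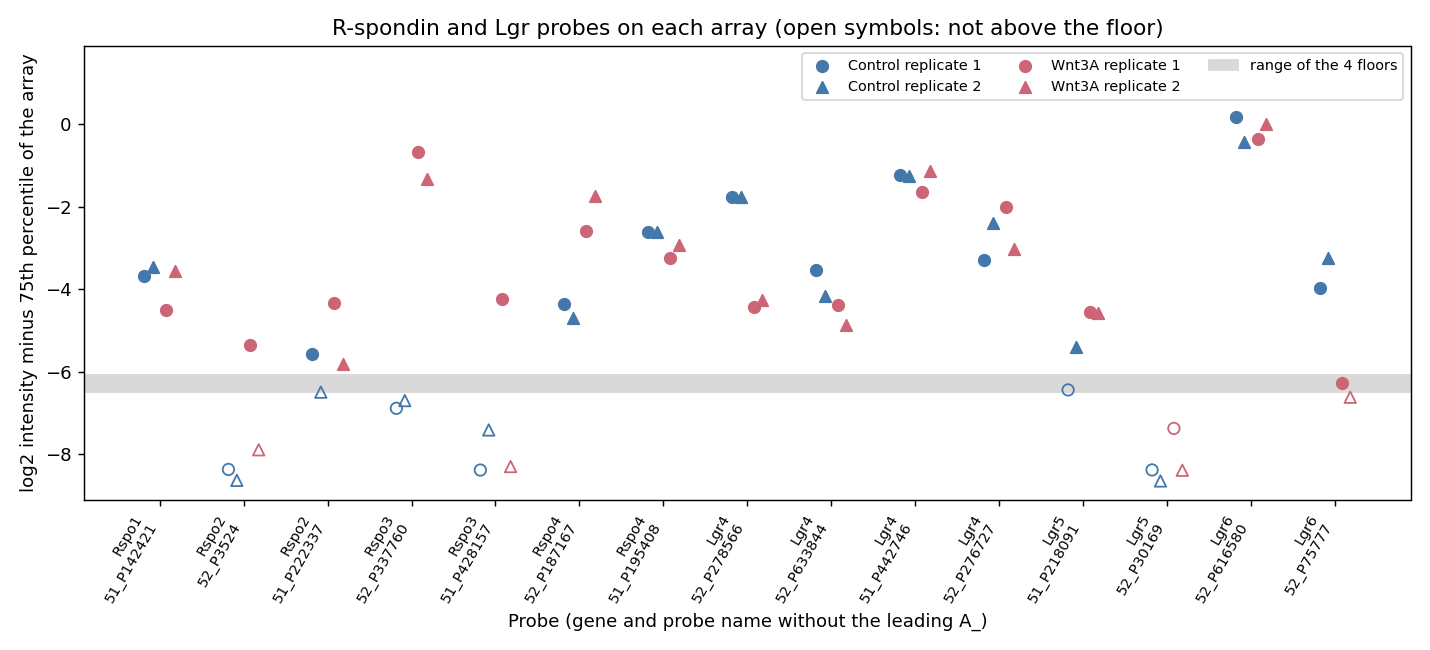
Log2 intensity relative to the 75th percentile of the array (vertical axis) for the 15 R-spondin and Lgr probes (horizontal axis) on each of the 4 arrays of the deposited table. Circles are replicate 1 and triangles replicate 2, open symbols are not above the floor, and the grey band spans the 4 floors. Rspo3 probe A_52_P337760 is below the band in both Control arrays and at -0.68 and -1.33 in the Wnt3A arrays.

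Among the ligands, Rspo3 was the only one called higher. Rspo3 is the R-spondin known for roles in blood vessels and bone. Probe A_52_P337760 read 0.0398 in Control replicate 1 and 0.0488 in Control replicate 2, and 2.99 in Wnt3A replicate 1 and 1.95 in Wnt3A replicate 2. Both Control arrays were under the floor and both Wnt3A arrays above the array median, so the groups did not overlap. On the log2 scale Control read -6.89 and -6.70 (mean -6.79, SD 0.13, n = 2 arrays) and Wnt3A read -0.68 and -1.33 (SD 0.46, n = 2). The fitted difference in limma was 5.79 ± 0.38 (SE) with an adjusted p of 0.0293. The probe was kept for the test through its Wnt3A arrays alone. Difference, SE and p all use Control values under the floor. Since Control was not detected, the fold change is a lower bound of 36.5, or 18.3 if the floor is set 2 times as high. Across the table, 0.402% of 22859 genes were called higher and 0.241% lower, so 1 of 7 is a count too small to set against that share.

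The call for Rspo3 was close to the threshold. Of 11 alternatives computed from the table, 5 kept it past the threshold, and the adjusted p ranged from 0.0199 to 0.192 in limma. It was lost when no filter was set (adjusted p 0.0501 in limma) and with the replicate number as a block (0.0987). It was also lost when any 1 array was left out, although the difference stayed between 5.46 and 6.11 (log2). Such fits have 1 array in a group, and the loss in them was not particular to Rspo3.

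The other Rspo3 probe, A_51_P428157, lies 51.7 kb farther along in the direction of transcription, at 29142352 to 29142410 on chromosome 10. It was designed to the cDNA clone AK076308. It read 0.0141 and 0.0298 in Control and 0.256 and 0.0156 in Wnt3A. It was above the floor in Wnt3A replicate 1 alone and was not tested, so the higher level in both Wnt3A arrays was seen with 1 of 2 probes. In the scanner files, whose median intensity ranged from 7.32 to 178 between arrays, probe A_52_P337760 was well above background on 0 of 4 arrays. Scaled to the 75th percentile, its mean was -5.96 in Control and -6.88 in Wnt3A. Before scaling it read 2.50 and 2.39 in Control and 7.68 and 3.44 in Wnt3A, the opposite direction. Because the probe was not above background, neither direction is read as a result. Probe A_51_P428157 was well above background on 3 scanner arrays, with a mean of -4.04 in Control and -2.52 in Wnt3A. Its limma difference was 1.52 ± 1.42 (SE) and did not pass (adjusted p 1.00).

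By the distance between centred log2 values over the 4 arrays, the genes with the pattern most like that of Rspo3 were 2010003D24Rik (0.20), Pid1 (0.34), the transcript AK052140 (0.40), Ptprd (0.44) and Avil (0.49). Pid1 encodes an adaptor protein known from adipocytes, Ptprd a receptor tyrosine phosphatase, and Avil an actin-binding protein of the villin family. For the first 3, as for Rspo3, Control was under the floor on both arrays, so that their distances rest in part on values below background, and they were at least 16.1-fold, 13.2-fold and 12.8-fold higher in the Wnt3A arrays. The log2 difference was 6.02 for Ptprd, with 1 Control array under the floor, and 6.12 for Avil, detected on both. Likeness over 4 arrays describes these arrays only.

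Rspo4, the R-spondin known for nail formation, gave opposite directions with its 2 probes. Probe A_52_P187167 read 0.231 and 0.197 in Control and 0.803 and 1.48 in Wnt3A, so both Wnt3A arrays were higher. Its log2 difference was 2.36 ± 0.43 (SE), with an unadjusted p of 0.00426 and an adjusted p of 0.140 in limma, which did not pass. Probe A_51_P195408, which starts at base 1840 of the same transcript and 1086 genomic bases beyond the end of the former, read 0.766 and 0.836 in Control and 0.508 and 0.649 in Wnt3A. Here both Wnt3A arrays were lower, with a difference of -0.47 ± 0.31 (adjusted p 0.614). Whether the changes of the 2 probes differ was not tested. Both probes were well above background on all 4 scanner arrays and both differences there were -1.21 ± 1.42, so the higher values of probe A_52_P187167 were not seen there.

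Rspo1, known for its part in ovary development, was measured by 1 probe, at 124511330 to 124511389 on chromosome 4. It read 0.366 and 0.464 in Control and 0.212 and 0.417 in Wnt3A. The groups overlapped, and the difference was -0.46 ± 0.44 (log2, SE, adjusted p 0.732 in limma), against 0.71 ± 1.42 in the scanner files. Rspo2, known for its part in limb and lung development, was near the floor. Its probe A_51_P222337, at 42851255 to 42851314 on chromosome 15, read 0.0991 and 0.0562 in Control and 0.236 and 0.0876 in Wnt3A, with a difference of 0.96 ± 0.66 (adjusted p 0.625) and overlapping groups. Without Wnt3A replicate 1 the difference was 0.23 and without Wnt3A replicate 2 it was 1.69, so single arrays set its size. Neither Rspo2 probe was well above background on more than 1 scanner array. The other Rspo2 probe, A_52_P3524, was above the floor in Wnt3A replicate 1 alone, at 0.118, and was not tested.

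None of the 3 receptors passed by its brightest probe, and the probes of Lgr4 and Lgr6 were not alike. Lgr4, the most widely expressed of the 3 in mouse tissues, had 4 probes, all above the floor on every table array. In the order of transcription along chromosome 2 their log2 differences ran from -2.59 ± 0.30 through -0.78 ± 0.40 and -0.15 ± 0.34 to 0.32 ± 0.55 (SE). The exon-crossing probe A_52_P278566, the first in that order, read 1.39 and 1.49 in Control and 0.221 and 0.254 in Wnt3A. Replicates lay close together and the groups were far apart, but the adjusted p of 0.0699 in limma did not pass, with an unadjusted p of 0.000715.

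The brightest Lgr4 probe, A_51_P442746, is the third in that order, at 109813514 to 109813573, and read 2.00 and 2.13 in Control and 1.54 and 2.22 in Wnt3A. Its groups overlapped, with an adjusted p of 0.900. The probe between these, A_52_P633844 (designed to the cDNA clone AK052660), read 0.407 and 0.284 in Control and 0.231 and 0.168 in Wnt3A, lower in both Wnt3A arrays (adjusted p 0.512). The last probe, A_52_P276727, read 0.481 and 0.972 in Control and 1.19 and 0.602 in Wnt3A and overlapped (adjusted p 0.863). Whether the change depends on the position of the probe was not tested. Of the 4 probes, 2 were kept in the scanner files, with differences of -1.10 ± 1.42 for A_52_P278566 and -1.55 ± 1.42 for A_51_P442746, neither of which passed.

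Lgr5, the marker of intestinal and other epithelial stem cells, was dim. Its probe A_51_P218091, at 114855901 to 114855960 on chromosome 10, read 0.0542 and 0.121 in Control and 0.203 and 0.205 in Wnt3A, and Control replicate 1 was under the floor. Both Wnt3A arrays were higher than both Control arrays. The probe was kept for the test through its Wnt3A arrays alone, and the fit uses the Control value under the floor. The difference was 1.34 ± 0.46 (log2, SE), with an unadjusted p of 0.0407 and an adjusted p of 0.344 in limma. It was 0.82 without Control replicate 1, the array under the floor, and 1.87 without Control replicate 2. The other probe, A_52_P30169, was above the floor on 0 of 4 arrays. The former was well above background on 2 scanner arrays, 1 of each group, and the latter on none.

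Lgr6, known as a marker of stem cells in skin and of bone progenitors, was read by a bright and a dim probe. The bright probe A_52_P616580 read 5.36 and 3.78 in Control and 3.75 and 4.93 in Wnt3A. Its groups overlapped and the difference was -0.05 ± 0.38 (adjusted p 0.976 in limma). The dim probe A_52_P75777, designed to the cDNA clone AK040883 and 3184 bases farther along the gene, read 0.302 and 0.536 in Control and 0.0616 and 0.0499 in Wnt3A. Both Wnt3A arrays were lower and Wnt3A replicate 2 was under the floor. This probe was kept for the test through its Control arrays alone. Its difference of -2.85 ± 0.40 did not pass (adjusted p 0.0941, unadjusted p 0.00157). Whether the 2 probes of Lgr6 differ in their change was not tested. The bright probe was well above background on all 4 scanner arrays, with a difference of -0.69 ± 1.42, and the dim probe on 2 arrays, so it was not tested there.

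**Figure D2:**
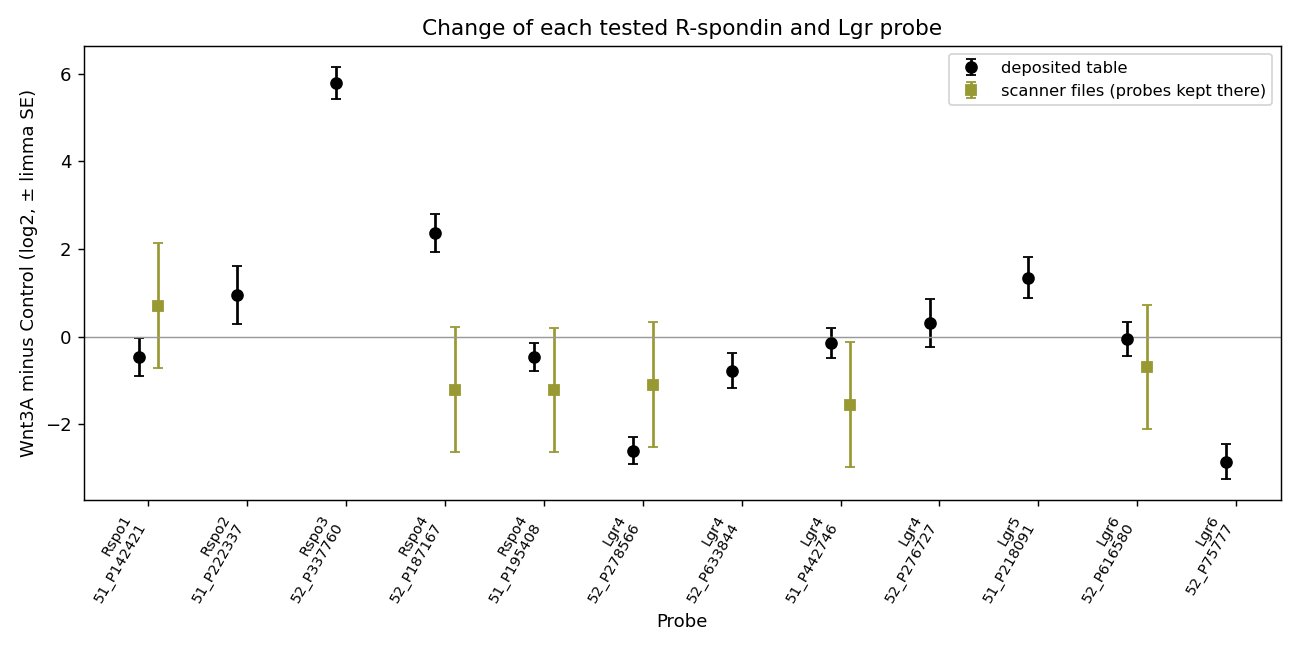
Wnt3A minus Control in log2 units (vertical axis) with the limma standard error for the 12 R-spondin and Lgr probes tested in the deposited table (black circles), and for the 6 of them also kept in the scanner files (olive squares). Rspo3 lies at 5.79, the Rspo4 probes lie on both sides of 0, and the standard errors of the scanner values, 1.42 for each probe, span 0 for 5 of the 6 probes.

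Over all members, 12 of 15 probes were tested, and 3 were not because neither group had both arrays above the floor. Of the 12, 5 were higher and 7 lower, and 1 was called higher and 0 lower, where 0.424% and 0.255% of all 33709 probes were called. At an unadjusted p under 0.05 in limma, 3 were higher and 2 lower, where 6.95% and 6.54% of all probes were. The Rspo3 and Lgr5 probes among the higher and the Lgr6 probe among the lower were kept through 1 group alone. These counts are therefore not read as a result about the members. The groups did not overlap for 7 of the 12 probes, against 45.1% of all tested probes. By the brightest probe of each gene, the median difference of the 7 genes was -0.05, and that of all genes tested was -0.01. In the scanner files 7 member probes were kept, 0 were called by limma and 0 had an unadjusted p under 0.05. Of the 6 probes tested in both sources, 4 had the same sign. The scanner files called 0.00695% of 28775 probes lower and 0 higher, with 478 genes at an unadjusted p under 0.05.

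The partners of the R-spondins and Lgr receptors were read through a list of 24 genes, all with a tested probe. It held the co-receptors Lrp5 and Lrp6, the 10 Frizzled receptors, the ligases Znrf3 and Rnf43, the Dishevelled and Kremen genes and other proteins reported to bind or act with R-spondins or Lgr receptors. Of the 24, 14 were higher and 10 lower, and 0 passed in limma in either direction. At an unadjusted p under 0.05, 4 were higher and 1 lower, where 6.31% and 6.34% of all genes were. The median difference was 0.07. The groups did not overlap for 19 of the 24, against 45.2% of all genes.

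Rnf43, the ligase that R-spondins draw away from Frizzled, showed the widest difference of the list, but did not pass. Its brightest probe A_51_P337101 read 0.0769 and 0.182 in Control and 1.73 and 0.948 in Wnt3A, a log2 difference of 3.45 ± 0.58 (SE, adjusted p 0.125 in limma). The other Rnf43 probe, A_52_P78183, read 0.0660 and 0.0144 in Control, both under the floor, and 0.845 and 2.52 in Wnt3A, and its adjusted p was 0.135. Both probes were higher in both Wnt3A arrays, the latter at least 22.1-fold. The mean of both passed with an adjusted p of 0.0271 in limma, but it takes in the Control values under the floor. No size is therefore given for it, and the pass is not read as a result. Rnf43 was well above background on 2 and 1 of the scanner arrays by these probes, too few for a difference there. Znrf3, the related ligase, read 0.759 and 0.520 in Control and 0.947 and 0.906 in Wnt3A, a difference of 0.57 ± 0.37 (adjusted p 0.601), against -0.47 ± 1.42 in the scanner files.

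Tnfrsf19, a receptor of the tumour necrosis factor family reported to act with Lgr5, read 2.15 and 2.44 in Control and 15.2 and 22.6 in Wnt3A. Its difference was 3.03 ± 0.35 (log2, SE), with an adjusted p of 0.0684 in limma that passed with trend and robust settings (0.0343). Its other probe, A_52_P7593, was also higher in both Wnt3A arrays (2.31 ± 0.45, adjusted p 0.158). In the scanner files the difference of the former was -0.59 ± 1.42 (SE), so no direction is read there.

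Sdc4, a cell-surface proteoglycan reported to bind Rspo3, was the gene of the list with the smallest p among those lower. It read 62.7 and 77.0 in Control and 30.3 and 26.0 in Wnt3A, a log2 difference of -1.30 ± 0.31 (SE, adjusted p 0.217 in limma), against 0.055 ± 1.42 in the scanner files. Fzd2, a Wnt receptor, had a difference of 1.52 ± 0.35 (adjusted p 0.204), and its other probe had a difference of -0.58. In the scanner files the former had 0.17 ± 1.42. Dvl3, a cytoplasmic transducer of Frizzled signals, had a difference of 1.49 ± 0.52 (adjusted p 0.350 in limma), against -0.79 ± 1.42 in the scanner files. For the co-receptors, the difference was -0.06 ± 0.33 for Lrp5 and -0.55 ± 0.31 for Lrp6 (adjusted p 0.965 and 0.539), against -0.30 for Lrp5 in the scanner files, where Lrp6 was also lower in Wnt3A (means of -2.89 and -4.39). The replicate groups of Lrp5 overlapped and those of Lrp6 did not.

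**Figure D3:**
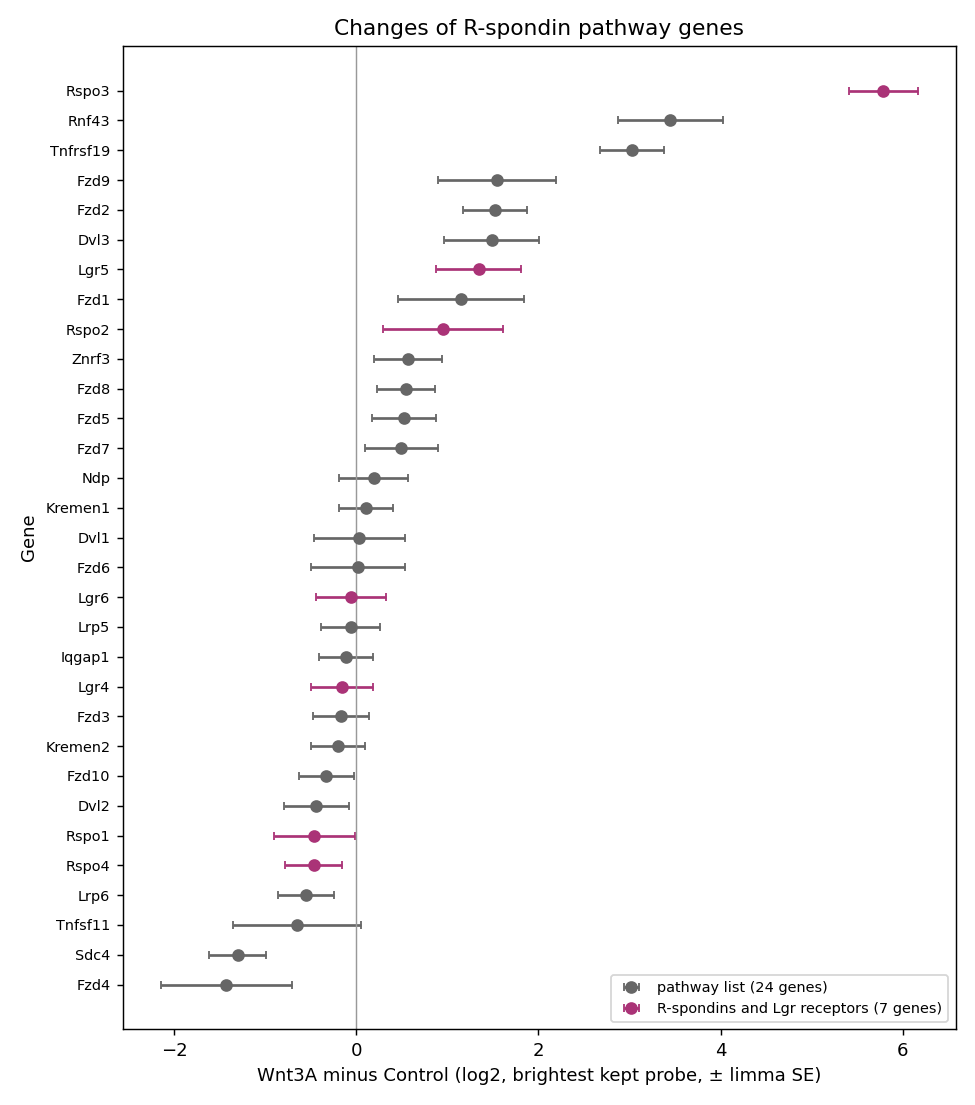
Wnt3A minus Control in log2 units (horizontal axis) with the limma standard error, by the brightest tested probe, for the 7 R-spondin and Lgr genes (purple) and the 24 genes of the pathway list (grey). Rspo3 at 5.79 stands at the top, followed by Rnf43 at 3.45 and Tnfrsf19 at 3.03, and the other genes lie between Fzd4 at -1.43 and Fzd9 at 1.54.

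The structural relatives of the Lgr receptors, the relaxin and glycoprotein hormone receptors Rxfp1, Rxfp2, Fshr, Lhcgr and Tshr, were read for comparison. Of these 5 genes 4 were tested, and 0 passed in limma. Of 7 genes known to mark Lgr5-positive stem cells (Ascl2, Olfm4, Smoc2, Sox9, Axin2, Prom1 and Cd44), 6 were tested, 3 were higher and 3 lower, and 0 passed. At an unadjusted p under 0.05 in limma by the brightest probe, 1 relative was lower and 1 stem cell marker, Axin2, was higher. Each was kept for the test through 1 group alone. Of all genes, 6.31% were higher and 6.34% lower at that cutoff. Dimmer probes of 2 other stem cell markers were lower at it, for Sox9 (-1.59, unadjusted p 0.00676 in limma) and Smoc2 (-0.86, 0.0429). Axin2 was under the floor in both Control arrays and at least 2.45-fold higher in Wnt3A, or 1.23-fold with the floor set 2 times as high. Its adjusted p of 0.0645 in limma uses the Control values under the floor. It was well above background on 0 of 4 scanner arrays.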

How the data were processed

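RNA from each sample was amplified by a global PCR method and labelled with Cy3, per the labels' protocols. The authors deposited a table of linear intensity values with a column median of 1, and scanner files of intensity values from Agilent Feature Extraction 10.5.1.1, per the file headers, with array annotation on mm8. Whether a spot was well above background or saturated was read from the other deposited columns, which hold flags. How the table was scaled is not given in the sources used here.

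Members and lists were chosen with earlier results of these data known. Table rows were joined to scanner spots by feature number. Values were taken to log2 and scaled by the 75th percentile of each array, and spots of a probe were averaged. To set a floor, the 1st percentile of a table column was multiplied by 4.94, which is how far the dimmest spot well above background stood over that percentile in the scanner files (median of 4.85 to 4.99). This floor is lenient. A probe was kept if it exceeded the floor on both arrays of a group. The kept probe with the highest mean stood for its gene.

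The comparison used limma 3.58.1 under R 4.3.3 (two-sided, Benjamini-Hochberg over 33709 probes, threshold 0.05, 2 residual and 2.29 prior degrees of freedom), checked on simulated data. An exact test of 2 against 2 arrays cannot go below 0.333. Named were all members, the pathway genes past the threshold or among the 5 smallest p, Znrf3, Rnf43, Lrp5 and Lrp6, and the 5 genes nearest a called member. A slide block could not be fitted, because all 4 scanner files are from 1 slide and 1 scan. Alternatives changed the source, scaling, filter, floor, limma settings, arrays, replicate block and probe summary. The number of arrays limits the precision.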

Additional observations from a re-analysis of the deposited data

How the results depend on the processing

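Among the R-spondin and Lgr genes the count called higher was 1, and it was 0 with no filter, with only the probes that exceeded the floor on all 4 arrays (which leave Rspo3 untested), with the replicate block, without any 1 array (0 to 0), and in all 3 fits of the scanner files. Rspo3 itself was 5.79 with no filter and with the replicate block, 5.46 to 6.11 without 1 array, and, by its other probe, 1.52 in the scanner files, 0.68 with normexp and quantile normalization and 2.88 with the faintest file left out. Leaving out an array leaves 1 array in a group, which is then assumed to vary like the other group. The pathway list had 1 gene called higher with trend and robust settings (Tnfrsf19, 3.03) and 1 when the probes of a gene were averaged, against 0. The latter was Rnf43, whose mean takes in Control values under the floor.

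Signs turned for small and for larger differences. Without 1 array the ranges, some of one sign, were -0.93 to 0.010 for Rspo1, -0.63 to 2.20 for Rspo4 (the other probe was then the brightest kept), 0.23 to 1.69 for Rspo2, -0.40 to 0.10 for Lgr4, 0.82 to 1.87 for Lgr5, -0.19 to 0.83 for Lgr4 probe A_52_P276727, -0.36 to 0.25 for Lgr6 and -0.27 to 0.14 for Lrp5. With the mean of their probes Rspo4 was 0.95, Lgr6 -1.45 (adjusted p 0.131 in limma) and Lgr4 -0.80 (0.339), and Lrp5 was 0.011 with quantile normalization. In the scanner files the sign turned for Rspo1 (0.71), Rspo4 probe A_52_P187167 (-1.21), Tnfrsf19 (from 3.03 to -0.59), Sdc4 (from -1.30 to 0.055), Dvl3 (-0.79) and Znrf3 (-0.47), with a median over all probes of -0.12. With normexp it turned for Rspo1 (0.12), Rspo4 probe A_52_P187167 (-0.70), Tnfrsf19 (-0.39) and Dvl3 (-0.59). With the faintest file left out, an alternative added after seeing the data, it turned for Rspo1 (1.57), Rspo2 (-1.37), Lgr6 (0.58), Rspo4 probe A_52_P187167 (-0.094), Lgr4 probe A_52_P276727 (-3.28), Fzd2 (-0.13), Dvl3 (-1.22), Znrf3 (-0.43) and Lrp5 (0.48). The standard error was 1.42 for each probe in the scanner files and 2.13 with the faintest file left out, so signs there are not read as directions. The cause of these turns was not tested.

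The replicate numbers did not pair the arrays, since the deviations of same-numbered arrays had a correlation of 0.012. The replicate block called 0 genes of 22859 in limma, against 147 called without it. At an unadjusted p under 0.05 there were 2737 genes with the block and 2893 without it.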
